A study of Rattus norvegicus with 6 samples.

Results

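The enzymes described here remove superoxide and peroxides: catalase (Cat), the superoxide dismutases Sod1, Sod2 and Sod3, the glutathione peroxidases Gpx1 and Gpx4, and the peroxiredoxins Prdx1, Prdx3, Prdx5 and Prdx6. They were taken by gene symbol from the array's annotation. All 10 had a probe, each of them exactly 1, among 22523 probes on the array. All 10 passed the filter on dim probes and were tested among 9193 named genes. Their levels were measured in non-tumor liver of male Wistar rats, with 1 Illumina bead array per rat. All rats had received an intraperitoneal injection of diethylnitrosamine (DEN, 50 mg/kg), a liver carcinogen, every week for 18 weeks. From week 13 to week 18 the EGCG group (3 rats, EGCG_228, EGCG_234 and EGCG_236) drank 0.02% epigallocatechin gallate, the main catechin of green tea, on 5 days a week, and the water group (3 rats, water_224, water_227 and water_237) drank water. Rats of both groups were killed in week 19, after a washout from DEN, and no group without DEN was analysed here, so that both groups are DEN-treated liver.

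Superoxide is formed as a by-product of the mitochondrial respiratory chain and by NADPH oxidases, and superoxide dismutases turn it into hydrogen peroxide. Catalase breaks hydrogen peroxide down in peroxisomes, which are abundant in hepatocytes. Glutathione peroxidases reduce peroxides with glutathione, and peroxiredoxins do so mostly with thioredoxin. Many of these genes are expressed at all times in liver, and some, such as Prdx1, can be induced through the transcription factor NRF2, which binds antioxidant response elements.

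The sequence upstream of the gene is shown for 3 of the enzymes. Gpx1 and Prdx1 had EGCG and water rats that did not overlap after quantile normalization. For Prdx1 they did overlap in the authors' normalized values and with cyclic loess. Sod2 was the only enzyme besides Prdx1 with an antioxidant response element core in its window. The sequences come from RefSeq (build GRCr8) and cover the 250 bases before the annotated start. They matched 8 of the 10 genes by gene identifier, and Sod3 and Prdx6 are named only. Capitals mark 3 motifs searched on both strands: the antioxidant response element core (TGACNNNGC), the AP-1 site (TGANTCA) and the GC box (GGGCGG). An AP-1 site can lie within an antioxidant response element. The Gpx1 window lies at chr8:117905212-117905461 on the plus strand, the Prdx1 window at chr5:135383656-135383905 on the plus strand and the Sod2 window at chr1:50050169-50050418 on the minus strand.
Gpx1: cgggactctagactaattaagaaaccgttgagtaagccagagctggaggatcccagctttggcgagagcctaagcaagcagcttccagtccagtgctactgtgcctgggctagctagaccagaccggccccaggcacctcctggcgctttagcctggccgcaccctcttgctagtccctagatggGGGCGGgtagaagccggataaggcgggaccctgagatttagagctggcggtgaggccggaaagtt
Prdx1: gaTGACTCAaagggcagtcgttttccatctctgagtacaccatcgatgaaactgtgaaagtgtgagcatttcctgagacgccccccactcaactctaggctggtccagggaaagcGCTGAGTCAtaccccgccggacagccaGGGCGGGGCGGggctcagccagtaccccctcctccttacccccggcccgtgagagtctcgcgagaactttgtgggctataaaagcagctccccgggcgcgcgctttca
Sod2: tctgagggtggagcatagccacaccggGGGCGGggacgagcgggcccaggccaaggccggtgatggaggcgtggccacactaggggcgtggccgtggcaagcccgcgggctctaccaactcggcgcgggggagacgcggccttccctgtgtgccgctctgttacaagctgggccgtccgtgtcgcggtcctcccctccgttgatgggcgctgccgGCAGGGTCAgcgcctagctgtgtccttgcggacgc
Of the 8 windows, 2 held the antioxidant response element core, where 10.1% of 33469 windows of the same length did. Prdx1 held it in reverse orientation 135 to 127 bases before the start, overlapping 1 of its 2 AP-1 sites, and Sod2 held it, also in reverse, 35 to 27 bases before the start. The AP-1 site was found in Prdx1 alone among the 8 and in 6.34% of all windows. The GC box was found in 7 of the 8 (all but Cat) and in 30.5% of all windows. A match is a run of letters and no binding was measured.

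None of the enzymes passed the test between EGCG and water rats. The test was limma's moderated test on the log2 scale (two-sided), with an adjusted p under 0.05 after Benjamini-Hochberg adjustment over 13514 probes, and 0 of the 10 passed, where 0.566% of all named genes did (0.12% higher and 0.446% lower with EGCG). Gpx1 was nearest to the threshold and stood 1.45-fold higher with EGCG. At an unadjusted p under 0.05 there was 1 of 10, Gpx1, against 11.6% of all named genes. After quantile normalization, EGCG and water rats were fully separated for 3 of the 10, where they were for 16.5% of all named genes. These were Gpx1 (higher with EGCG, as 8.25% of all named genes were) and Prdx1 and Prdx6 (lower, as 8.23% were). Of the 3, only Gpx1 was separated on all 6 scales compared after seeing the data. These were quantile, median scaling, cyclic loess, no background correction, the non-normalized values and the authors' normalized values. In the authors' normalized values 2 of the 10 were separated (Gpx1 and Prdx6). All 6 scales come from the same 6 arrays. The share of all named genes separated is given for the quantile scale only, so that the other scales have no background here. The median log2 difference of the 10 (EGCG minus water) was 0.07, and it was 0.00 over all named genes. By sign, 6 were above 0 and 4 below, and of all named genes 51.1% were above 0.

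The precision of the comparison can be read from the intervals. The standard errors (SE) of the differences ran from 0.14 to 0.22 on the log2 scale, and the 95% intervals of all 10 lay between -0.64 and 0.89. A log2 difference of 1 in either direction was thus outside the interval of each enzyme, as it was for 95.2% of all named genes. With median scaling in place of quantile normalization the upper bound for Gpx1 was 1.02. The smallest log2 difference among the named genes that passed was 0.62 in size, larger than that of any of the 10 enzymes. These intervals are not adjusted for the number of genes.

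**Figure D1:**
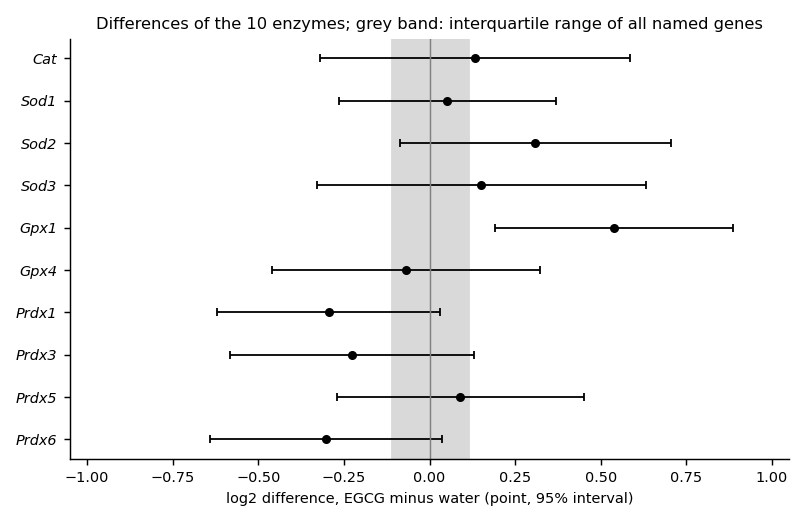
Log2 difference (EGCG minus water) of each of the 10 enzymes, as a point with its 95% interval from limma (3 rats per group). The grey band is the interquartile range of the differences of all 9193 named genes, from -0.11 to 0.11. The interval lies clear of 0 for Gpx1 (0.19 to 0.89) and includes 0 for the other 9.

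The superoxide dismutases form the first step. Sod1, the copper and zinc enzyme of the cytosol, stood at normalized log2 levels of 13.89, 14.01 and 13.86 in EGCG_228, EGCG_234 and EGCG_236. In water_224, water_227 and water_237 it stood at 13.77, 13.90 and 13.93. The groups overlapped, and all 6 rats lay close together: the difference was 0.05 (SE 0.14, limma adjusted p = 0.948), with a 95% interval from -0.26 to 0.37. It was 0.00 without water_224 or EGCG_234 and 0.08 without EGCG_236. Sod2, the manganese enzyme of the mitochondrial matrix, stood at 9.59, 9.25 and 9.04 in the EGCG rats and at 8.83, 9.20 and 8.92 in the water rats, in the same order. EGCG_228 was highest, and water_227 lay between EGCG_236 and EGCG_234, so that the groups overlapped. The Sod2 difference was 0.31 (SE 0.18, limma adjusted p = 0.624), and it was 0.16 without EGCG_228 and 0.44 without EGCG_236. Sod3, the secreted enzyme that binds to the extracellular matrix, was the member with the widest interval. It stood at 8.28, 8.42 and 7.62 in the EGCG rats and at 7.96, 7.67 and 8.24 in the water rats. EGCG_236 was the lowest of the 6 rats and the other EGCG rats were the highest. The Sod3 difference of 0.15 (SE 0.22, limma adjusted p = 0.887) was -0.01 without EGCG_234, 0.01 without water_227 and 0.40 without EGCG_236.

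After quantile normalization, catalase varied far more among EGCG rats than among water rats. Cat stood at log2 12.23, 11.81 and 11.40 in EGCG_228, EGCG_234 and EGCG_236, and at 11.65, 11.75 and 11.64 in the water rats. On this scale the EGCG rats lay on both sides of the water rats: EGCG_228 and EGCG_234 were the highest of the 6 and EGCG_236 the lowest. The non-normalized intensities were 4729, 3782 and 2538 with EGCG and 3925, 3813 and 2381 with water, so that water_237 was the lowest there. Normalized log2 levels are used in what follows. The standard deviation (SD) was 0.41 with EGCG and 0.06 with water (n = 3 each). The difference of the means was 0.13 (SE 0.21, limma adjusted p = 0.896). It was 0.33 without EGCG_236 and -0.07 without EGCG_228, so that its sign rested on EGCG_228. Across the 10 enzymes, the SD was larger with EGCG for 7, and across all named genes it was larger with EGCG for 53.2%.

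Gpx1, the selenoenzyme that reduces hydrogen peroxide in the cytosol and mitochondria, was higher in every EGCG rat than in any water rat. Its log2 levels were 13.66, 13.50 and 13.28 in EGCG_228, EGCG_234 and EGCG_236. They were 12.95, 12.85 and 13.01 in water_224, water_227 and water_237. The groups did not overlap, and EGCG_236 was the EGCG rat nearest to the water rats. The non-normalized intensities did not overlap either, at 12631, 11496 and 10248 with EGCG and 9158, 8407 and 6453 with water. The EGCG mean was 13.48 ± 0.19 (SD, n = 3) and the water mean 12.94 ± 0.08 (SD, n = 3), which gives a difference of 0.54 (SE 0.16). It did not pass the test (limma adjusted p = 0.217, unadjusted p = 0.00581), and 292 named genes had a smaller p. With each rat left out in turn the difference ran from 0.45 to 0.63, and the adjusted p was lowest without EGCG_236 (0.052).

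Gpx4, the selenoenzyme that reduces phospholipid hydroperoxides in membranes and so holds back ferroptosis, stood at log2 12.76, 12.85 and 13.31 in the EGCG rats in the order above, and at 13.04, 13.13 and 12.97 in the water rats. As for Cat, the EGCG rats lay on both sides of the water rats on this scale, but here EGCG_236 was the highest of the 6 and EGCG_228 and EGCG_234 the lowest. Among the non-normalized intensities water_237, at 6310, was the lowest. The SD was 0.29 with EGCG and 0.08 with water. The difference was -0.07 (SE 0.18, limma adjusted p = 0.941). It was 0.03 without EGCG_228 and -0.23 without EGCG_236. No test set Gpx1 against Gpx4, so that a difference between these selenoenzymes in their response is not shown.

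**Figure D2:**
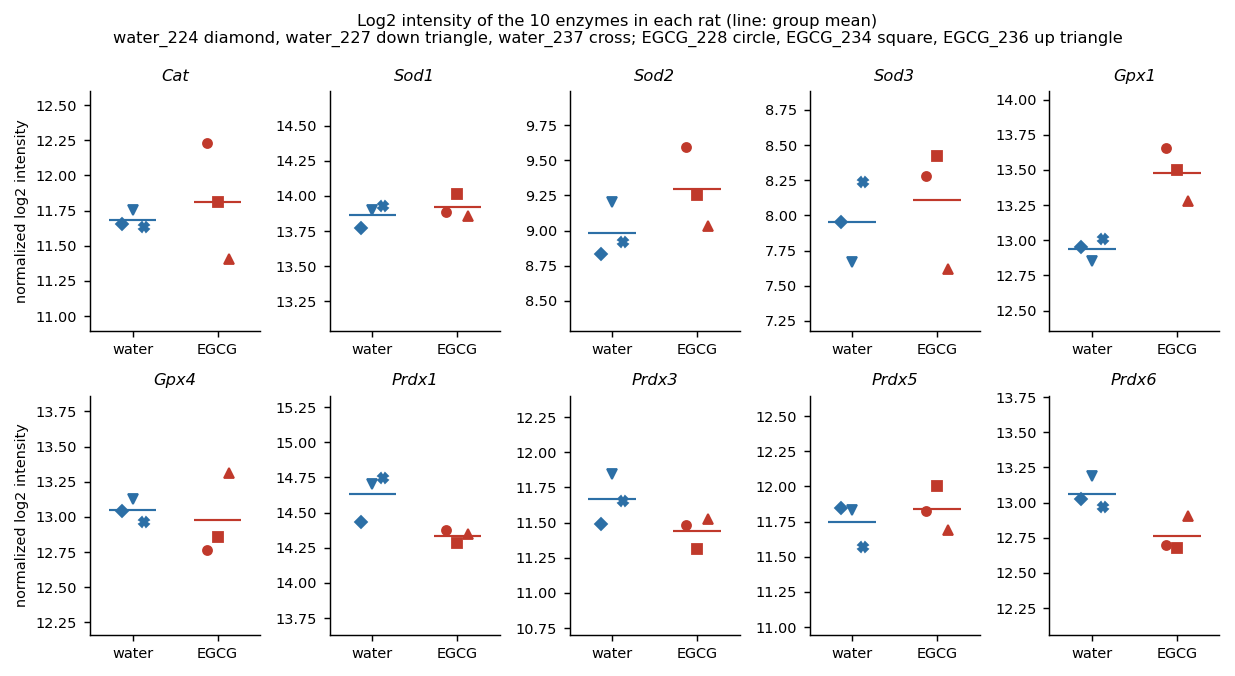
Normalized log2 intensity of each enzyme in each rat (water blue, EGCG red, 1 symbol per rat, horizontal line the group mean of 3 rats). Every panel spans the same log2 range, centred on the mean of that probe, and levels of different probes are not comparable. On this quantile-normalized scale the groups do not overlap for Gpx1, Prdx1 and Prdx6. For Prdx1 they do overlap in the authors' normalized values and with cyclic loess. For Prdx6 they do in the non-normalized values and with median scaling. On the scale shown, the EGCG rats lie on both sides of the water rats for Cat, Sod3 and Gpx4.

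None of the 4 peroxiredoxins passed the test, and no test set them against each other. Prdx1, the abundant thioredoxin-dependent peroxiredoxin of the cytosol, stood at log2 14.37, 14.28 and 14.34 in EGCG_228, EGCG_234 and EGCG_236. In water_224, water_227 and water_237 it stood at 14.44, 14.70 and 14.74. On this scale every EGCG rat was below every water rat, with water_224 close to EGCG_228. In the authors' normalized values water_224 stood at an intensity of 19883, below the EGCG rats (20420, 19917 and 19916). The groups overlapped there, and they overlapped with cyclic loess too. The difference was -0.29 (SE 0.15, limma adjusted p = 0.542), with a 95% interval from -0.62 to 0.03, and it was -0.21 in the authors' normalized table and -0.20 with cyclic loess. Prdx6, which uses glutathione and also has phospholipase activity, stood at 12.70, 12.68 and 12.90 with EGCG and 13.02, 13.19 and 12.97 with water. After quantile normalization the groups did not overlap, and EGCG_236 lay nearest to the water rats. With median scaling the groups overlapped. They also overlapped on the non-normalized scale. There water_237, the array with the lowest mean intensity, stood at 6318, below the EGCG rats (6581, 6618 and 7766). The other water rats stood at 9735 and 10461. The Prdx6 difference was -0.30 (SE 0.15, limma adjusted p = 0.55), with a 95% interval from -0.64 to 0.04.

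The mitochondrial peroxiredoxins overlapped between the groups after quantile normalization. Prdx3, which is confined to mitochondria and draws on thioredoxin there, stood at log2 11.48, 11.31 and 11.52 in the EGCG rats and 11.49, 11.85 and 11.66 in the water rats. Only water_224 lay among the EGCG rats, and with cyclic loess the groups did not overlap. The difference was -0.23 (SE 0.16, limma adjusted p = 0.705), and it ran from -0.31 without water_224 to -0.14 without water_227. Prdx5, found in mitochondria, peroxisomes and cytosol, stood at 11.82, 12.01 and 11.69 with EGCG and 11.85, 11.84 and 11.57 with water. EGCG_234 was highest and water_237 lowest, with the other rats between them. Its difference was 0.09 (SE 0.16, limma adjusted p = 0.914), 0.01 without EGCG_234 and 0.00 without water_237.

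**Figure D3:**
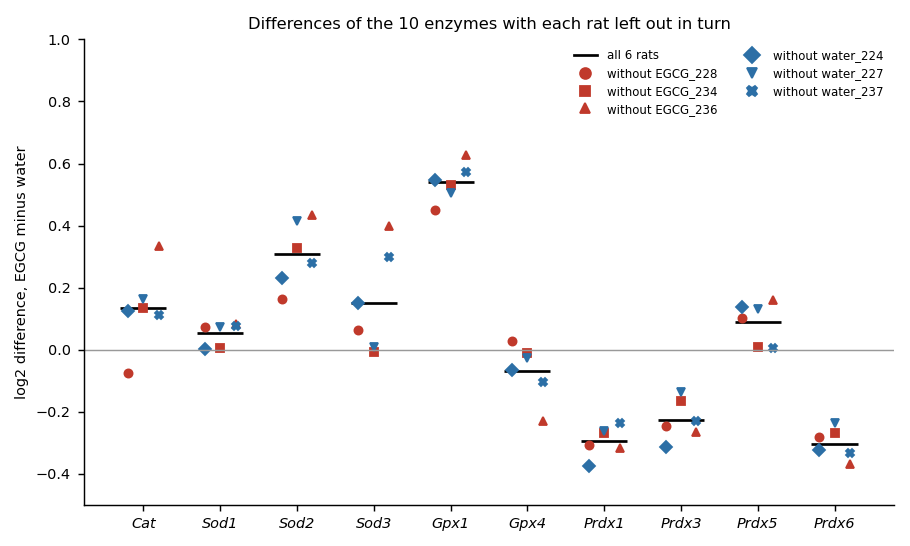
Log2 difference (EGCG minus water) of each enzyme over all 6 rats (black line) and with each rat left out in turn (symbols). Gpx1 stays between 0.45 and 0.63, Prdx1, Prdx3 and Prdx6 stay below 0, and Cat, Sod3 and Gpx4 each cross 0 when 1 EGCG rat is left out.

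Rats were set beside each other over the enzymes as a whole. Relative to the mean of the water rats, the median over the 10 enzymes was 0.05 in EGCG_228, 0.14 in EGCG_234 and -0.10 in EGCG_236. The water rats stood at -0.03, 0.08 and -0.03 (water_224, water_227 and water_237). The groups overlapped, and EGCG_236 was the lowest of the 6. EGCG_236 lay above the water mean for 3 of the 10 enzymes and the other EGCG rats for 6 each. Leaving out EGCG_236 raised the number of enzymes with an unadjusted p under 0.05 from 1 to 4 (Sod2, Gpx1, Prdx1 and Prdx6), and 0 passed the threshold. Over all 13514 probes, leaving out EGCG_236 raised the number with an unadjusted p under 0.05 from 1376 to 1976. The number that passed rose from 66 to 186.

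**Figure D4:**
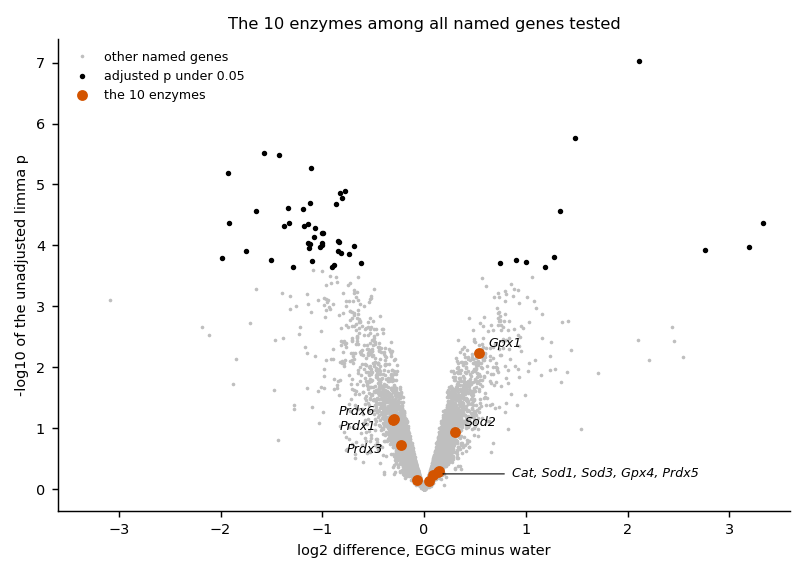
Log2 difference (EGCG minus water) against -log10 of the unadjusted limma p for 9193 named genes, each at its brightest probe. The 10 enzymes (orange) all lie below the 52 genes with an adjusted p under 0.05 (black), and Gpx1 is the highest of the 10.

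For the 3 enzymes with the smallest p, the named genes with the most similar pattern over the 6 rats were looked up by Pearson's r, as a description without a test. For Gpx1 these were Pon1 (r = 0.995), which encodes the paraoxonase that hepatocytes secrete onto high-density lipoprotein, Zfp574 (0.992) and Tpcn2 (0.991). For Prdx1 they were Srsf12 (0.986), Or4p20 (0.978) and Dsg4 (0.977), whose mean log2 levels of 6.63, 6.47 and 6.63 were close to the filter at 6.39. For Prdx6 they were Nup58 (0.983), Cd53 (0.978) and Cyp20a1 (0.977). Of 9183 genes, 42 had r over 0.95 with Gpx1, 18 with Prdx1 and 27 with Prdx6.

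The other genes of the pathway were read from lists chosen by function. Among other glutathione peroxidases and genes of glutathione supply, 0 of 13 tested passed, and the median was -0.22. Of the 13 differences, 11 were below 0, as were 4493 of the 9193 named genes. Gpx3, the glutathione peroxidase of plasma, stood at log2 9.93, 9.66 and 10.19 in the EGCG rats and at 10.59, 10.61 and 11.10 in the water rats. Every EGCG rat was below every water rat. The Gpx3 difference was -0.84 (SE 0.20, limma adjusted p = 0.117), and it passed both with EGCG_236 left out (-0.97, adjusted p = 0.0429) and under array weights (-0.88, adjusted p = 0.0417). Gpx8, of the endoplasmic reticulum, and Gpx2, first known from the gut epithelium, differed by -0.81 and -0.54 (limma adjusted p = 0.25 and 0.338). Glutathione reductase, Gsr, differed by -0.39 (limma adjusted p = 0.546; -0.20 without EGCG_234).

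Among thioredoxin and peroxiredoxin supply genes, 0 of 11 passed, with a median of -0.04. Txnip, the protein that binds and inhibits thioredoxin, had EGCG rats all below the water rats, and its difference was -0.96 (SE 0.19, limma adjusted p = 0.0752; 0.0489 with a robust trend). Nxn, a thioredoxin-like protein, differed by -0.64 (limma adjusted p = 0.125), and passed with EGCG_236 left out (-0.79, adjusted p = 0.037) or under array weights (-0.72, adjusted p = 0.0334). Txnrd1, the cytosolic thioredoxin reductase, differed by -0.67 (limma adjusted p = 0.382), and by -0.33 without EGCG_234. Txnrd3 differed by 0.26 (limma adjusted p = 0.483).

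Gpx1 and Gpx4 carry selenocysteine, so selenium handling genes were read too. Of 11 tested, 0 passed, and 7 of the 11 differences were above 0 (median 0.10), as were 51.1% of all named genes. Scly, which frees selenium from selenocysteine for reuse, stood at 9.64, 9.82 and 9.46 in the EGCG rats and 8.83, 8.92 and 8.99 in the water rats on the log2 scale. The groups did not overlap, and the difference was 0.73 (SE 0.15, limma adjusted p = 0.0836). Scly passed when EGCG_236 was left out (0.81, adjusted p = 0.0306) or under array weights (0.77, adjusted p = 0.026). Dio1, the selenoenzyme that activates thyroid hormone in liver, and Sephs2, which makes the selenium donor, differed by 0.96 and 0.33 (limma adjusted p = 0.141 and 0.531). Selenom, a selenoprotein of the endoplasmic reticulum, differed by -0.73 (limma adjusted p = 0.109; 0.0417 with array weights).

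Of 7 tested genes that supply metal to the dismutases, 0 passed (median 0.08). Ccs, the chaperone that loads copper into Sod1, had EGCG rats all above the water rats on 4 of the 6 scales and differed by 0.40 (SE 0.15, limma adjusted p = 0.372). Among 22 tested genes whose products make superoxide or peroxide, 1 fell and 0 rose. It was Aoc3, an amine oxidase of vessels and adipose tissue, at -0.74 (SE 0.13, limma adjusted p = 0.0349). The Aoc3 call was lost when EGCG_228, EGCG_234, water_227 or water_237 was left out (adjusted p between 0.0678 and 0.175), and also without an intensity trend (0.0609) and without moderated variances (0.422). Lox, the lysyl oxidase that crosslinks collagen, differed by -0.82 (limma adjusted p = 0.196). The peroxisomal hydroxyacid oxidases Hao1 and Hao2, which release hydrogen peroxide, differed by 0.57 and 0.95 (limma adjusted p = 0.192 and 0.211). When EGCG_236 was left out, 2 genes of this list rose. Hao2 was among them (1.28, adjusted p = 0.0203), and it also passed under array weights (1.17, adjusted p = 0.0404). Hao1 passed in neither case (limma adjusted p = 0.0587 or above). Of 16 tested peroxisome biogenesis genes, 0 passed, with a median of 0.01. Pxmp2, a channel of the peroxisomal membrane, and Pex16, which helps build that membrane, had the smallest p, and differed by 0.49 and 0.46 (limma adjusted p = 0.25 and 0.349).

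Among 11 tested genes of NRF2 and FoxO control, 1 fell and 0 rose. It was Hmox1, heme oxygenase, at -1.65 (SE 0.24, limma adjusted p = 0.0197), whose call was lost without EGCG_228, EGCG_234 or water_227 (0.0634 to 0.0776) and without moderated variances (0.433). Nfe2l2, which encodes NRF2, differed by 0.38 (limma adjusted p = 0.467) and Keap1, its inhibitor, by 0.24 (limma adjusted p = 0.611). Foxo4 differed by 0.24 (limma adjusted p = 0.388), by 0.40 with a normexp offset of 16 and by 0.16 in the authors' normalized table. Its mean log2 level of 6.42 was close to the filter at 6.39.

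**Figure D5:**
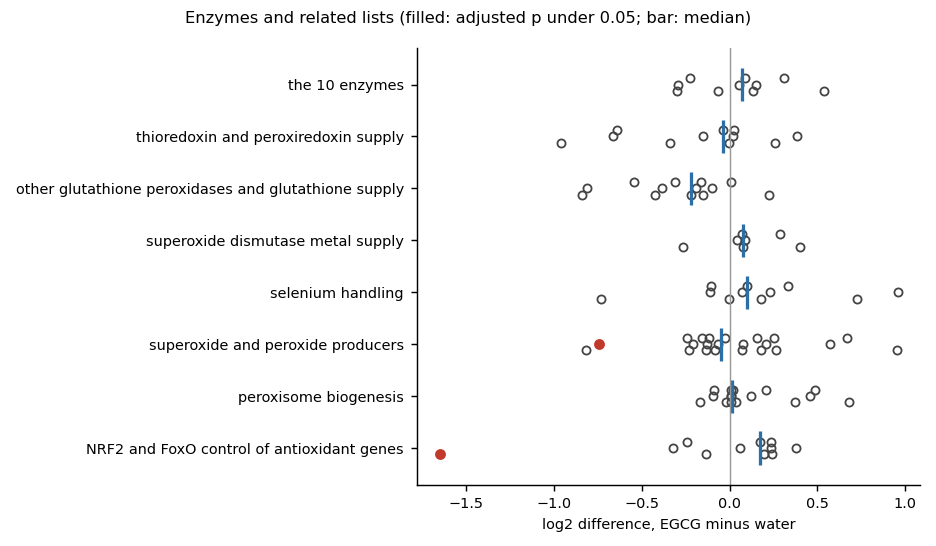
Log2 difference (EGCG minus water) of each tested gene for the 10 enzymes and 7 related lists, with the list median as a bar. Filled points passed the threshold (Aoc3 and Hmox1, both lower), and open points did not; the medians run from -0.22 to 0.17.

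Liver is a mixture, and fewer cells of a type cannot be told apart from less RNA per cell. Hepatocyte markers matched the labelled tissue, with Alb at log2 15.01 and Tf at 14.86 (means of 6 rats). Of 10 hepatocyte markers tested, 0 passed, and their summed normalized intensity ran from 169000 to 192000 with EGCG and from 179000 to 191000 with water. The 2 of smallest p were Tat, lower in every EGCG rat than in any water rat (-1.17, limma adjusted p = 0.203), and Ttr, higher in every EGCG rat (0.53, limma adjusted p = 0.295). Of 8 red cell markers, 3 fell, among them Hba-a1 (-1.57, limma adjusted p = 0.00635; 0.373 without moderated variances), and the sum ran from 13500 to 26100 with EGCG and from 51300 to 75100 with water. Red cells are rich in Gpx1, Cat, Sod1 and Prdx2 protein. Of 11 stellate cell and myofibroblast markers, 2 fell, and the sum ran from 6140 to 7390 with EGCG and from 10200 to 12600 with water. Neutrophil markers (1 of 6 fell) summed to 902 to 1260 with EGCG and 1820 to 3040 with water, and endothelial markers (1 of 8 fell) to 2420 to 2650 and 3020 to 3500. Cholangiocyte markers (0 of 9 passed) summed to 3600 to 5270 and 6400 to 7990, and Kupffer cell and macrophage markers (0 of 9 passed) to 9250 to 11500 and 11500 to 15900. Of the 9 macrophage markers, 6 differences were below 0 and 3 above, where 51.1% of all named genes were above 0. Marco, with the smallest p of the 9, was higher in every EGCG rat than in any water rat (1.03, limma adjusted p = 0.131). Cd14, C1qc, Fcer1g and C1qb were lower in every EGCG rat than in any water rat. They differed by -0.69, -0.48, -0.44 and -0.43 (limma adjusted p = 0.23, 0.39, 0.427 and 0.479). Brighter markers weigh more in all these sums. Lymphocyte markers (0 of 10 passed) summed to 1170 to 1270 with EGCG and 1160 to 1310 with water, and mitochondrial genes (0 of 14 passed) to 44600 to 50200 and 44400 to 48100. With all rats, 0.446% of all named genes fell. The marker counts moved with single rats, as did the number of all probes that passed (given with the processing alternatives). Without any rat but EGCG_236, 1 of the red cell markers fell, and without EGCG_236 it was 3. Stellate cell markers that fell numbered 0 without EGCG_228, EGCG_234 or water_227 and 4 without EGCG_236. Of the neutrophil markers, 1 fell without water_237 and 0 without any other rat. Of the endothelial markers, 1 fell without EGCG_236 and 0 without any other rat. Without EGCG_236, 1 hepatocyte marker and 1 macrophage marker rose. The part of these cell types in the differences of Gpx1, Prdx1, Prdx6 and the related genes was not tested.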

How the data were processed

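Of the deposited tables, the first holds raw bead intensity values (linear scale, 22523 probes), which the authors had not background-subtracted or normalized, judging from the values (lowest 53.4). The second holds the same arrays after a normalization by the authors and served as an alternative. How it was normalized, and with which software, is not given in the sources used. No detection p-values, bead counts or probe sequences were used, so that no probe is called detected and cross-hybridization was not checked. Array medians ran from 112 to 120 and means from 382 to 531. The number of arrays limits the precision, and with 3 rats a group the smallest two-sided p of an exact permutation test is 0.1.

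The raw intensities went through normexp background correction (offset 50), log2 transformation and quantile normalization. A filter on the mean log2 level (40th percentile, 6.39) kept 13514 probes. The platform annotation named 13793 probes, and each gene is represented by its brightest probe. EGCG and water were compared with limma 3.58.1 in R 4.3.3 (lmFit, eBayes with intensity trend, no covariates), adjusted over all 13514 probes, and the scripts were tested on simulated data. The number in each label was taken as the rat. No slide or scan batch was given in the labels, and a batch that follows the groups cannot be told apart from them.

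The enzymes and lists were chosen with earlier results of these data known. Genes named are the 10 enzymes and up to 4 genes of each related list by smallest p (and any past the threshold). Also named are 1 red cell marker, the macrophage and hepatocyte markers given above, and up to 3 genes of most similar pattern for each of 3 enzymes.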

Additional observations from a re-analysis of the deposited data

How the results depend on the processing

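Of 180 values of the 10 enzymes under 18 alternatives, 177 kept their sign and missed the threshold as before, and in 3 the sign turned: Cat (from -0.0738 without EGCG_228 to 0.3331 without EGCG_236), Gpx4 (from -0.2304 without EGCG_236 to 0.0295 without EGCG_228) and Sod3 (from -0.0069 without EGCG_234 to 0.3984 without EGCG_236). The number of enzymes past the threshold was 0 under every one of these alternatives. Their median difference ran from -0.0013 (without EGCG_234) to 0.12 (without EGCG_236). The adjusted p of Gpx1 ran from 0.052 to 0.556. Without moderated variances 0 of all probes passed (1164 at an unadjusted p under 0.05, with Gpx1, Prdx1 and Prdx6 among them), against 66 with limma. That number was 42 without an intensity trend, 172 with array weights, and from 12 (without EGCG_228) to 186 (without EGCG_236) with 1 rat left out. The same alternatives, added after seeing the data, were run on the related genes, where the sign turned for Slc30a10 (-0.0041 without EGCG_228, and from -0.0091 without water_237 to 0.1354 without water_227) and for Pxmp4 (from -0.0501 without EGCG_234 to 1.1305 without EGCG_236). Averaging all probes of a gene left the enzymes' differences as they were, since each has 1 probe. Changing only the filter, the intensity trend or the moderation of variances also leaves these differences as they are. Under those alternatives no sign could turn, and their values among the 180 tell nothing about the stability of the sign. The 3 turned signs all came with a rat left out. No paired analysis was possible because the groups share no replicate numbers. The causes of these shifts were not tested.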
